A study of Mus musculus with 8 samples.

Results

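The interleukin and interleukin-receptor genes were examined in 8 bulk RNA-seq libraries from CT26 tumours, 4 from mice given propranolol and 4 from control mice given PBS. CT26 is a mouse colon carcinoma line that is grown in its syngeneic host, so each library holds RNA of the carcinoma cells together with that of infiltrating host cells. Members were all protein-coding genes whose symbol begins with Il followed by a digit, which gave 44 of the 14133 genes in the table. They comprised 13 ligands, 27 receptor chains and 4 antagonists or decoys. Genes of the family without a row in the table were not analysed here.

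Both groups were male mice of the strain spelled BABL/C in the labels, of wild-type genotype, with CT26 cells placed under the skin. Propranolol, a blocker of beta-adrenergic receptors, was injected into the peritoneum once a day from a tumour volume of 70 to 100 mm3, and control animals received PBS. No source used here gives the dose, the age of the animals or the day of collection. The labels number 4 tumours per group, whereas the submitters' description of the design speaks of duplicates. The labels were followed here, so n = 4 rests on them. They do not state whether the tumours of a group are from separate mice. Each SD and p-value is therefore a measure of spread between these samples only.

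Interleukins are secreted messengers that act through receptor chains on the surface of other cells, most of which signal through JAK kinases and STAT factors. IL-2, IL-4, IL-7, IL-15 and IL-21 share the common gamma chain, whereas IL-6, IL-11 and IL-27 signal through the shared chain gp130. IL-1, IL-18 and IL-33 use receptors with a cytoplasmic TIR domain, and soluble antagonists and decoy receptors limit their action. In tumours, IL-2, IL-7, IL-15 and IL-21 maintain T and NK cells, while IL-12, IL-18 and IL-27 shape type 1 responses.

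Gene counts summed to 16570218 to 17201729 per propranolol library and 15483409 to 17511937 per control library. Of 9 epithelial and colon markers, 5 were in the table, namely Cdh1, Krt8, Krt18, Krt20 and Lgals4, and their summed level was 93.5 to 195 CPM in propranolol tumours and 79.0 to 177 CPM in control tumours. The remaining 4 (Epcam, Krt19, Cdx2 and Vil1) were not analysed here. The 3 CD3 chains, which mark T cells, summed to 38.7, 11.7, 1.97 and 57.3 CPM in propranolol tumours 1 to 4, against 12.02, 6.88, 2.95 and 8.91 CPM in control tumours 1 to 4. Skeletal muscle markers summed to 595.8 CPM in control tumour 4 and to 57.5 CPM or less in the other 7 tumours. For CD3, propranolol tumours 1 and 4 stood above every control tumour, and propranolol tumour 3 stood below every other tumour. In bulk tissue, fewer cells of a type and less RNA per cell cannot be told apart.

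The first question was whether family members differed between propranolol and control tumours. None of the 43 members that could be tested passed an adjusted p of 0.05 by edgeR's quasi-likelihood test with Benjamini-Hochberg adjustment over 14006 genes. Of all 14006 genes 0% were called, with 0.999 as the lowest adjusted value. With an unadjusted p under 0.05, 2 members were higher in propranolol tumours, Il7r and Il12rb2, which is 4.65% of members beside 1.24% of all genes. No member was lower at that level, beside 0.714% of all genes, and 1.95% of all genes passed it in either direction. DESeq2 likewise called no gene after adjustment and 2 members at an unadjusted p under 0.05, beside 330 of 14006 genes. With limma-voom none of the members was called at either level, beside 246 of 14006 genes at an unadjusted p under 0.05. No member had all 4 propranolol tumours above all 4 control tumours, beside 0.714% of all genes, and none had all 4 below, beside 0.914%.

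The fitted log2 fold changes, propranolol over control, leaned upward without passing the test. They were above 0 for 30 of 43 members, or 69.8%, beside 49.4% of all genes, and their median was 0.14, beside -0.0022 over all genes tested. Receptor chains carried this lean, with 22 of 27 above 0 and a median of 0.21, whereas ligands had 5 of 12 above 0 and a median of -0.04. All 8 receptor chains of the common gamma chain group were above 0, with a median of 0.66, and so were all 6 receptor chains of the IL-6 and IL-12 group, with a median of 0.44. IL-1 family receptor chains divided evenly, 3 above and 3 below 0. These counts are descriptions of genes that vary together across the same 8 tumours and were given no test of their own.

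**Figure D1:**
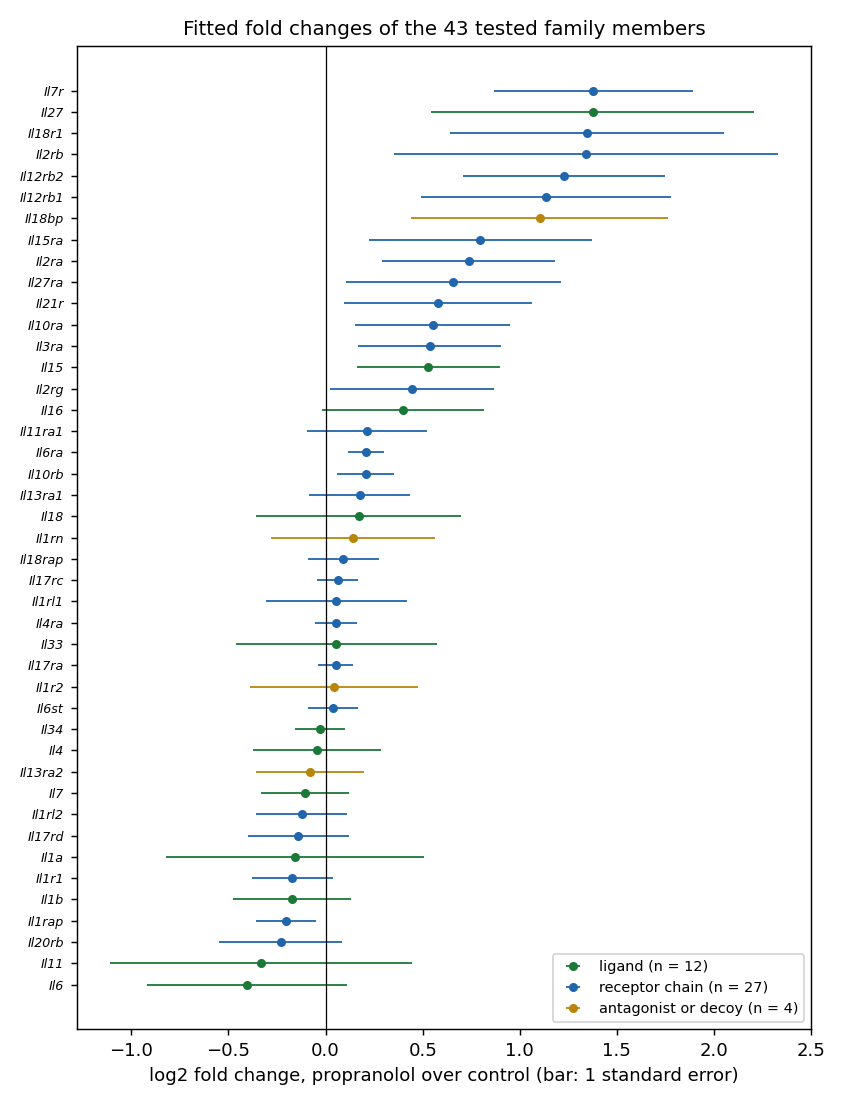
Fitted log2 fold change (propranolol over control, horizontal axis) of the 43 tested family members, ordered by value and coloured by role, with bars of 1 standard error. Fitted values were above 0 for 30 members, and none passed the adjusted test.

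The median log2 fold change of members stayed above 0 whichever tumour was left out, at 0.070 to 0.27. Extreme levels and the count at an unadjusted p under 0.05 went with single tumours. Propranolol tumour 4 had the highest level of 19 members and propranolol tumour 1 of 9, while control tumour 3 had the lowest level of 13 and propranolol tumour 3 of 11. The same counts were not made over all genes, so they are not shown to be particular to the family. Without propranolol tumour 3, 13 of 44 members had an unadjusted p under 0.05, which is 29.5% beside 7.23% of all genes; they were Il10ra, Il12rb1, Il12rb2, Il15, Il15ra, Il16, Il18bp, Il18r1, Il27, Il27ra, Il2ra, Il6ra and Il7r. Leaving out any one of the other 7 tumours gave 0 or 1 member, beside 134 to 459 of all genes. Without control tumour 2 there was none, without propranolol tumour 4 it was Il1b alone, at a lower fitted level, and without control tumour 4 it was Il12rb2 alone. Il7r alone was left without propranolol tumour 1 or 2, or without control tumour 1 or 3.

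With the replicate number as a block, 8 members had an unadjusted p under 0.05, namely Il10ra, Il12rb2, Il15, Il15ra, Il18r1, Il21r, Il3ra and Il7r. That is 18.6% of members beside 5.12% of all genes. In number pairs, the propranolol tumour was above its control in all 4 pairs for Il12rb2, Il15, Il15ra, Il18r1, Il21r, Il3ra, Il6ra and Il7r, or 18.6% beside 6.93% of all genes. Only Il1r1 and Il1rap were below in all 4 pairs, or 4.65% beside 6.40%.

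Levels spanned a wide range. Mean FPKM, which scales fragment counts by transcript length and library size, over the 8 tumours ran from 0.306 for Il6, a ligand of the acute-phase response, to 25.96 for Il18rap, the accessory chain of the IL-18 receptor. Of the 44 members, 10 averaged over 10 FPKM, 25 between 1 and 10 FPKM, and 9 under 1 FPKM. Among ligands Il34, which binds the CSF1 receptor, stood alone above 10 FPKM.

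**Figure D2:**
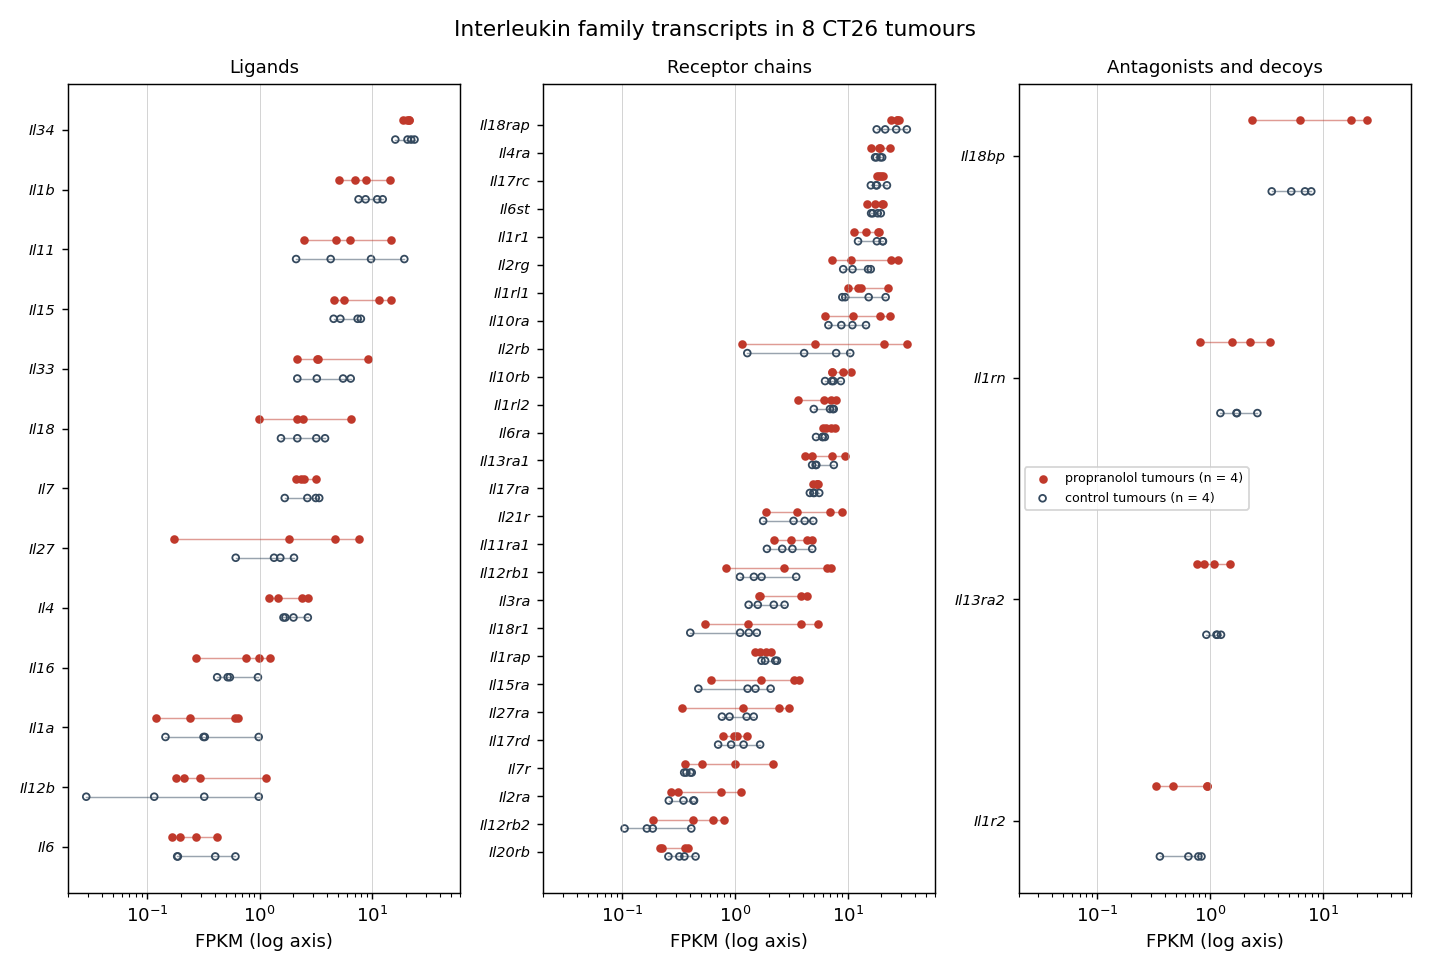
Level of each member in FPKM (log axis) in 4 propranolol tumours (filled points) and 4 control tumours (open points), by role, ordered by mean level within each panel; lines join the lowest and highest tumour of a group. Il34, Il18rap, Il17rc and Il4ra show narrow ranges, while Il27, Il2rb, Il18r1 and Il18bp spread widely among propranolol tumours.

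Il7r and Il12rb2 had the smallest p-values of the family. Il7r, the alpha chain of the IL-7 receptor that naive and memory T cells carry, had 0.996, 0.359, 0.511 and 2.17 FPKM in propranolol tumours 1 to 4, against 0.415, 0.355, 0.404 and 0.372 FPKM in control tumours 1 to 4. Propranolol tumours 1, 3 and 4 were above every control tumour and propranolol tumour 2 lay within the narrow control range. The means were 1.01 ± 0.821 FPKM in propranolol tumours and 0.386 ± 0.0276 FPKM in control tumours (SD, n = 4 each), with a fitted log2 fold change of 1.38 (SE 0.51; edgeR unadjusted p = 0.0232, adjusted p = 0.999). Without propranolol tumour 4 the log2 fold change was 0.67 (edgeR unadjusted p = 0.0964). The authors' deposited comparison gave a log2 fold change of 1.39 for Il7r, with an unadjusted p of 0.00816 and an adjusted p of 0.9997.

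Il12rb2, the signalling chain of the IL-12 receptor on activated T and NK cells, had 0.642, 0.425, 0.188 and 0.794 FPKM in propranolol tumours 1 to 4, against 0.187, 0.166, 0.105 and 0.411 FPKM in control tumours 1 to 4. Here propranolol tumours 1, 2 and 4 were above every control tumour and tumour 3 was level with the second highest control tumour. These levels rest on few counts, 42, 27, 12 and 50 in propranolol tumours 1 to 4, against 11, 11, 7 and 27 in control tumours 1 to 4. The fitted log2 fold change was 1.23 (SE 0.52, edgeR unadjusted p = 0.0408, adjusted p = 0.999). The authors' deposited comparison gave 1.24, with an unadjusted p of 0.0366 and an adjusted p of 0.9997. Leaving out 1 tumour moved the log2 fold change of Il12rb2 between 0.93, without propranolol tumour 4, and 1.73, without control tumour 4. Its partner Il12rb1, which also serves the IL-23 receptor, had 7.18, 2.74, 0.841 and 6.56 FPKM in propranolol tumours, against 1.48, 1.73, 1.11 and 3.50 FPKM in control tumours. Both chains were therefore highest in propranolol tumours 1 and 4, while propranolol tumour 3 had the lowest Il12rb1 of all 8. Il12rb2 overlaps Serbp1 on the opposite strand, and no source used here says whether the counting used strand.

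The promoters of Il7r and Il12rb2 are shown because these genes were the only members at an unadjusted p under 0.05 and because their receptors signal through STAT factors. Each sequence runs from 250 bases before to 50 bases after the start, from RefSeq on GRCm38.p6, a different build from the GRCm39 of the count table. Capitals mark TTCNNNGAA, the core of the GAS element that STAT dimers bind, searched on both strands. The Il7r window is chr15:9529827-9530126 on the minus strand, with the match at position -142 from the start. The Il12rb2 window is chr6:67376139-67376438 on the minus strand, with the match at position -123.
Il7r: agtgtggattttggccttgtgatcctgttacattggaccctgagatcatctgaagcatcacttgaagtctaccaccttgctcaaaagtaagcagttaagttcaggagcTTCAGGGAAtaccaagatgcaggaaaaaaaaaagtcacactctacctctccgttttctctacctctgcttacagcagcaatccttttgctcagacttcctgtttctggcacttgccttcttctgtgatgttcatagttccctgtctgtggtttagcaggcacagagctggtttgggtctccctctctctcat
Il12rb2: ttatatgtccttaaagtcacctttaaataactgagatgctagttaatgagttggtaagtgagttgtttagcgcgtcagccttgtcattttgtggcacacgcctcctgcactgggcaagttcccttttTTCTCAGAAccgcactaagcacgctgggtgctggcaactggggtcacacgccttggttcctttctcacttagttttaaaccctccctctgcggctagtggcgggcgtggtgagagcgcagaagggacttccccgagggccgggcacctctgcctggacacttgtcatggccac
These letters occurred in 2726 of 32851 RefSeq promoters, or 8.30%, and in 5 of the 47 promoters matched to 34 of the 44 members, or 10.6%. The 5 belonged to Il7r, Il12rb2, Il18r1, Il1r2 and Il4. A second motif, the core of the interferon-stimulated response element (GAAA, any 2 bases, GAAA), occurred in 2 of 47 member promoters (Il1rap and Il4) and in 3.44% of all promoters. A core of NF-kappaB sites (GGGA, any base, TTTCC) occurred in 2 of 47 (Il16 and Il6) and in 0.411% of all.

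Among the other chains that pair with the common gamma chain, Il2rb, the beta chain for IL-2 and IL-15, had the widest spread. It had 33.6, 5.18, 1.15 and 21.1 FPKM in propranolol tumours 1 to 4, against 7.93, 4.12, 1.29 and 10.6 FPKM in control tumours 1 to 4. Propranolol tumours 1 and 4 were above every control tumour and propranolol tumour 3 was the lowest of all 8, so that a fitted log2 fold change of 1.34 carried an SE of 0.99 (edgeR unadjusted p = 0.214). It was 0.63 without propranolol tumour 1 and 1.77 without control tumour 4. The common gamma chain itself, Il2rg, had 24.3, 10.8, 7.23 and 28.0 FPKM in propranolol tumours, against 15.2, 11.1, 9.15 and 16.1 FPKM in control tumours, with a log2 fold change of 0.44 (SE 0.42; edgeR unadjusted p = 0.322). The order of tumours was similar for both chains, but the range was narrower for Il2rg, and the ratio of Il2rb to Il2rg in FPKM ran from 0.159 to 1.38 in propranolol tumours and from 0.141 to 0.657 in control tumours.

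Il2ra, the high-affinity alpha chain found on regulatory and activated T cells, had 1.14, 0.314, 0.271 and 0.749 FPKM in propranolol tumours and 0.429, 0.350, 0.260 and 0.435 FPKM in control tumours, with a log2 fold change of 0.74 (SE 0.44; edgeR unadjusted p = 0.130). Il21r, the IL-21 receptor of lymphocytes, had 6.98, 3.56, 1.88 and 8.85 FPKM in propranolol tumours and 4.97, 3.32, 1.78 and 4.17 FPKM in control tumours, with a log2 fold change of 0.58 (SE 0.48; edgeR unadjusted p = 0.265). Il2ra and Il21r again had their highest levels in propranolol tumours 1 and 4, and the other 2 propranolol tumours lay among the control tumours. Il4ra, the chain that binds IL-4 and also serves IL-13, was the most even of the group, at 23.6, 19.5, 19.1 and 16.3 FPKM in propranolol tumours and 20.3, 19.6, 17.6 and 18.05 FPKM in control tumours. Its log2 fold change was 0.06 (SE 0.11; edgeR unadjusted p = 0.623). Il13ra1, the second chain of the type II IL-4 receptor, averaged 6.47 ± 2.44 FPKM in propranolol tumours and 5.73 ± 1.24 FPKM in control tumours (SD, n = 4 each).

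Of the 3 ligands of these receptors in the table, only Il15 had a log2 fold change above 0. Il15, which is presented by myeloid and stromal cells and sustains NK and memory T cells, had 11.5, 5.66, 4.58 and 14.6 FPKM in propranolol tumours 1 to 4, against 7.42, 5.21, 4.54 and 7.92 FPKM in control tumours 1 to 4. Only propranolol tumours 1 and 4 exceeded the control range, and the log2 fold change was 0.53 (SE 0.37; edgeR unadjusted p = 0.185). Il15ra, the chain that presents IL-15 to neighbouring cells, had 3.73, 1.69, 0.616 and 3.33 FPKM in propranolol tumours, against 1.52, 1.299, 0.475 and 2.08 FPKM in control tumours, and thus largely followed the order of Il15 with a wider span. Il7, a stromal ligand, averaged 2.53 ± 0.452 FPKM in propranolol tumours and 2.72 ± 0.759 FPKM in control tumours, and Il4, a type 2 ligand, averaged 1.93 ± 0.696 FPKM in propranolol tumours and 2.001 ± 0.480 FPKM in control tumours (SD, n = 4 each). For Il7 and Il4 the groups overlapped. Il7 overlaps Gm16685 on the opposite strand. Il2 and Il21 themselves were not analysed here.

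Among secreted members, the highest and lowest FPKM over the 8 tumours differed 43.5-fold for Il27, 10.4-fold for Il18bp and 9.12-fold for Il11, and 39.1-fold for Il12b, a gene with few counts. The span of Il27 also rests on few counts at its low end, 3 in propranolol tumour 3 and 11 in control tumour 3. Il18bp, the soluble antagonist that binds IL-18, had 17.8, 6.22, 2.36 and 24.6 FPKM in propranolol tumours 1 to 4, against 6.95, 5.25, 3.52 and 7.90 FPKM in control tumours 1 to 4. Propranolol tumours 1 and 4 were above every control tumour and propranolol tumour 3 below every one, with a log2 fold change of 1.10 (SE 0.66; edgeR unadjusted p = 0.136), which was 0.55 without propranolol tumour 4 and 1.45 without propranolol tumour 3. Its target Il18 had 2.14, 2.43, 0.982 and 6.49 FPKM in propranolol tumours and 3.19, 2.16, 1.55 and 3.81 FPKM in control tumours. The ratio of Il18bp to Il18 in FPKM was 8.31, 2.56, 2.41 and 3.79 in propranolol tumours 1 to 4, against 2.18, 2.43, 2.28 and 2.07 in control tumours 1 to 4. Antagonist and target thus kept nearly 1 ratio over the control tumours. Propranolol tumours 1, 2 and 4 held more antagonist per ligand than any of them, tumour 2 by a small margin. The ratio rests on few counts of Il18. These were 38, 42, 17 and 111 in propranolol tumours 1 to 4, against 51, 39, 28 and 68 in control tumours 1 to 4. This ratio was chosen from several partner ratios and was not tested. Il18bp overlaps Numa1 on the opposite strand.

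Il27, the p28 subunit of the dendritic cell and macrophage cytokine IL-27, had 4.72, 1.81, 0.175 and 7.61 FPKM in propranolol tumours, against 2.02, 1.34, 0.615 and 1.53 FPKM in control tumours. The highest and the lowest tumour of all 8 were therefore both propranolol tumours, and the log2 fold change of 1.37 had an SE of 0.83 (edgeR unadjusted p = 0.135). It was 0.68 without propranolol tumour 4, 1.77 without propranolol tumour 3 (edgeR unadjusted p = 0.00622) and 0.60 with limma-voom. Its receptor chain Il27ra had 3.04, 1.18, 0.341 and 2.47 FPKM in propranolol tumours and 1.27, 0.769, 0.898 and 1.47 FPKM in control tumours, in which the same 2 propranolol tumours were highest and propranolol tumour 3 was again lowest. Il27 overlaps Apobr and Il27ra overlaps Palm3, each on the opposite strand. Il12b, the shared subunit of IL-12 and IL-23, had 10, 7, 6 and 37 counts in propranolol tumours and 30, 4, 1 and 11 counts in control tumours, and was left untested by the filter on low counts.

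The remaining chains around gp130 were steadier. Il6ra, the IL-6 binding chain, had 7.69, 6.47, 6.01 and 7.09 FPKM in propranolol tumours 1 to 4, against 6.02, 6.29, 5.25 and 5.996 FPKM in control tumours 1 to 4. Propranolol tumours 1, 2 and 4 were above every control tumour, by a small margin, and the log2 fold change was 0.21 (SE 0.09; edgeR unadjusted p = 0.0528). Il6st, which encodes gp130, averaged 18.3 ± 2.77 FPKM in propranolol tumours and 17.8 ± 1.63 FPKM in control tumours (SD, n = 4 each). Il6 stayed under 1 FPKM in every tumour, at 0.167 to 0.417 FPKM in propranolol tumours and 0.186 to 0.611 FPKM in control tumours. Il11, a gp130 ligand of stromal and carcinoma cells, had 2.45, 6.35, 14.6 and 4.75 FPKM in propranolol tumours and 4.28, 9.75, 19.2 and 2.11 FPKM in control tumours. Its highest tumours were propranolol 3 and control 3, the same tumours that held the least CD3, and its log2 fold change of -0.33 had an SE of 0.78 (edgeR unadjusted p = 0.683). The row for its receptor Il11ra1 is uncertain, since this gene has near-identical copies and overlaps Galt on the same strand; it averaged 3.66 ± 1.18 FPKM in propranolol tumours and 3.17 ± 1.25 FPKM in control tumours.

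The 6 IL-1 receptor family members named next lie side by side on the plus strand of chromosome 1, with no other gene of the table between them. On GRCm39 they run in the order Il1r2 (40113239 to 40164391), Il1r1 (40264240 to 40356417), Il1rl2 (40363770 to 40406722), Il1rl1 (40468730 to 40504575), Il18r1 (40504712 to 40540014) and Il18rap (40554522 to 40590865). Il1r1 is the signalling receptor of IL-1, Il1r2 its decoy, Il1rl2 the receptor of IL-36, Il1rl1 the receptor of IL-33, and the last 2 form the IL-18 receptor. Adjacent genes did not all share the same order of tumours.

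**Figure D3:**
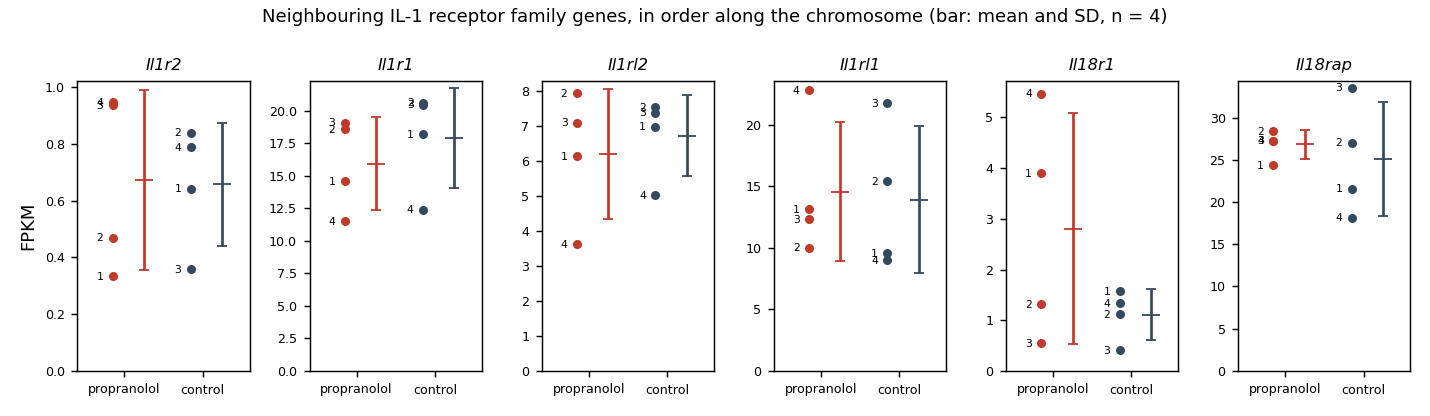
Level in FPKM (vertical axes, each from 0) of the 6 neighbouring IL-1 receptor family genes in numbered propranolol and control tumours, with the mean and SD of each group (n = 4). Il18r1 reached 5.47 and 3.90 FPKM in propranolol tumours 4 and 1, whereas the adjacent Il18rap was 24.4 to 28.4 FPKM in propranolol tumours and 18.1 to 33.6 FPKM in control tumours.

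Il18r1, the IL-18 binding chain carried by NK and type 1 T cells, had 3.90, 1.31, 0.544 and 5.47 FPKM in propranolol tumours 1 to 4, against 1.57, 1.12, 0.403 and 1.33 FPKM in control tumours 1 to 4. Il18rap, its accessory chain, had 24.4, 28.4, 27.3 and 27.3 FPKM in propranolol tumours and 21.6, 27.0, 33.6 and 18.1 FPKM in control tumours, with a log2 fold change of 0.09 (SE 0.18; edgeR unadjusted p = 0.629). The accessory chain was thus high in every tumour while the binding chain was highest in propranolol tumours 1 and 4. The ratio of Il18r1 to Il18rap in FPKM ran from 0.0199 to 0.200 in propranolol tumours and from 0.0120 to 0.0734 in control tumours, so that Il18rap was in excess in all 8.

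The promoters of this pair are shown to set beside each other the starts of adjacent genes whose levels differed in pattern. They come from RefSeq on GRCm38.p6, plus strand, at chr1:40465302-40465601 for Il18r1, the most upstream of 3 starts listed, and chr1:40515112-40515411 for Il18rap. Neither window held any of the 3 motifs searched, so no letters are in capitals.
Il18r1: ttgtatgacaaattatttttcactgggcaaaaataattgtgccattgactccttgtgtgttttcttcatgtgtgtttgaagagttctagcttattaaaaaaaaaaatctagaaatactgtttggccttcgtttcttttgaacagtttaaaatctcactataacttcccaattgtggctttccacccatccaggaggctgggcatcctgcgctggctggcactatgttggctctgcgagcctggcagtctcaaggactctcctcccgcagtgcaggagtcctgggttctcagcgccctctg
Il18rap: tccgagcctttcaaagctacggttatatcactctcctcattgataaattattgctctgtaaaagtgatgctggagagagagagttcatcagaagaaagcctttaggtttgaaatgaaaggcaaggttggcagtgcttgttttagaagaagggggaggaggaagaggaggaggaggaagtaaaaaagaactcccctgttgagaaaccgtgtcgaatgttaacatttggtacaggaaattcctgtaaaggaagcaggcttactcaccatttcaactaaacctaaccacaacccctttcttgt
The 2 GAS matches found for Il18r1 lie in the window of another of its 3 starts.

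Il1r1 had 14.6, 18.6, 19.1 and 11.5 FPKM in propranolol tumours 1 to 4, against 18.2, 20.6, 20.5 and 12.4 FPKM in control tumours 1 to 4. Its lowest levels were in tumour 4 of each group, and each propranolol tumour was below the control tumour of the same number. Il1rap, the accessory chain that IL-1, IL-33 and IL-36 receptors share, had 1.52, 2.09, 1.90 and 1.66 FPKM in propranolol tumours and 1.86, 2.37, 2.28 and 1.72 FPKM in control tumours, with the same direction in each pair. The ratio of Il1r1 to Il1rap stayed between 6.92 and 10.04 in propranolol tumours and between 7.19 and 9.81 in control tumours. Il1rl1 had 13.1, 10.002, 12.4 and 22.8 FPKM in propranolol tumours and 9.54, 15.4, 21.8 and 8.99 FPKM in control tumours, and Il1rl2 had 6.14, 7.94, 7.11 and 3.63 FPKM in propranolol tumours and 6.99, 7.54, 7.38 and 5.02 FPKM in control tumours. The groups overlapped for both, and propranolol tumour 4 was at opposite ends, highest in Il1rl1 and lowest in Il1rl2. The decoy Il1r2 stayed under 1 FPKM in every tumour.

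Among IL-1 family ligands, Il1b, the inflammasome-processed ligand of myeloid cells, had 7.06, 8.80, 5.03 and 14.4 FPKM in propranolol tumours, against 12.4, 7.55, 11.1 and 8.72 FPKM in control tumours. The propranolol tumours included the highest level and the lowest, and the log2 fold change was -0.17 (SE 0.30; edgeR unadjusted p = 0.582). Il33, an alarmin released by damaged stromal and epithelial cells, had 3.22, 2.15, 9.10 and 3.28 FPKM in propranolol tumours and 6.44, 5.51, 3.22 and 2.16 FPKM in control tumours, with propranolol tumour 3 the highest of all 8. The receptor antagonist Il1rn had 1.57, 0.810, 2.27 and 3.43 FPKM in propranolol tumours and 1.24, 1.71, 2.63 and 1.73 FPKM in control tumours, with a log2 fold change of 0.14 (SE 0.42; edgeR unadjusted p = 0.743). The ratio of Il1rn to Il1b in FPKM was 0.0920 to 0.452 in propranolol tumours and 0.0998 to 0.237 in control tumours. Il1a stayed under 1 FPKM in every tumour.

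Il17ra and Il17rc, the chains that form the IL-17 receptor, had the narrowest ranges of all 44 members, with FPKM differing 1.21-fold and 1.39-fold over the 8 tumours. Il17rc had 20.7, 19.1, 18.4 and 19.8 FPKM in propranolol tumours and 18.2, 17.9, 16.1 and 22.4 FPKM in control tumours, with a log2 fold change of 0.06 (SE 0.11; edgeR unadjusted p = 0.570). Its partner Il17ra had 5.31, 5.36, 4.94 and 5.46 FPKM in propranolol tumours and 4.63, 5.61, 5.07 and 4.98 FPKM in control tumours. The ratio of Il17ra to Il17rc stayed between 0.257 and 0.281 in propranolol tumours and between 0.223 and 0.315 in control tumours. Il17rd, an orphan chain that also restrains FGF signalling, varied more, 2.36-fold over the 8 tumours, and averaged 1.02 ± 0.202 FPKM in propranolol tumours and 1.13 ± 0.417 FPKM in control tumours (SD, n = 4 each).

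IL-10 receptor chains and the unpaired members complete the family. Il10ra, the IL-10 binding chain of leukocytes, had 23.7, 11.3, 6.37 and 19.3 FPKM in propranolol tumours and 14.6, 8.81, 6.77 and 11.03 FPKM in control tumours, with propranolol tumours 1 and 4 above every control tumour. Its broadly expressed partner Il10rb was steadier, at 8.59 ± 1.70 FPKM in propranolol tumours and 7.45 ± 0.989 FPKM in control tumours (SD, n = 4 each). Il20rb, a chain of the IL-20 receptors of epithelium, averaged 0.296 ± 0.0876 FPKM in propranolol tumours and 0.346 ± 0.0796 FPKM in control tumours. Il34 had 20.2, 21.0, 18.8 and 21.0 FPKM in propranolol tumours and 20.5, 22.1, 23.7 and 16.01 FPKM in control tumours, with a log2 fold change of -0.03 (SE 0.13; edgeR unadjusted p = 0.825). It was abundant and nearly level across all 8 tumours. Il3ra, the IL-3 receptor alpha chain, averaged 2.87 ± 1.42 FPKM in propranolol tumours and 1.98 ± 0.644 FPKM in control tumours. Il16, a lymphocyte chemoattractant that overlaps Stard5 on the opposite strand, averaged 0.813 ± 0.409 FPKM in propranolol tumours and 0.614 ± 0.242 FPKM in control tumours, with a log2 fold change of 0.40 (SE 0.42; edgeR unadjusted p = 0.362). Il13ra2, the IL-13 decoy, averaged 1.06 ± 0.327 FPKM in propranolol tumours and 1.12 ± 0.137 FPKM in control tumours, with a log2 fold change of -0.08 (SE 0.28; edgeR unadjusted p = 0.782).

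The recurring order, with propranolol tumours 1 and 4 high and propranolol tumour 3 low, led to the second question, how closely each member followed the immune and stromal content of its tumour. Each member's log2(CPM + 1) was correlated over the 8 tumours with the summed level of 5 marker lists, with exact permutation p-values adjusted over 70030 relations, that is 14006 genes and 5 lists. With the CD3 chains, 7 of 43 members passed an adjusted p of 0.05, all positive, which is 16.3% beside 2.09% of all genes. They were Il27, Il18r1, Il18bp, Il21r, Il10ra, Il2rg and Il15. No member passed on the negative side, beside 0.428% of all genes. Median r was 0.436 over members and -0.0370 over all genes.

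Il27 followed CD3 most closely, with a Pearson r of 0.992 (exact permutation p = 2.48e-05, the smallest that 8 tumours can give, adjusted p = 0.0267) and a Spearman rho of 1 (exact permutation p = 4.96e-05, adjusted p = 0.0366). Il18r1 had r = 0.984 (exact permutation p = 0.000322, adjusted p = 0.0417) and rho = 0.952 (exact p = 0.00114, adjusted p = 0.0734). Il18bp had r = 0.983 (exact p = 0.000174, adjusted p = 0.0376) and rho = 0.929 (exact p = 0.00223, adjusted p = 0.0869). The rank order of tumours in Il27 was thus exactly that of CD3, and Il27 was the only member to pass by Spearman's rho as well. Its lowest tumour, propranolol 3, held 3 counts of Il27. Il21r had r = 0.974 (exact p = 0.000471, adjusted p = 0.0457) and rho = 0.952 (exact p = 0.00114). Il10ra had r = 0.963 (exact p = 0.000397, adjusted p = 0.0440) and rho = 0.976 (exact p = 0.000397). For Il2rg r was 0.949 (exact p = 0.000620, adjusted p = 0.0488) and rho 0.881 (exact p = 0.00724), and for Il15 r was 0.935 (exact p = 0.000471, adjusted p = 0.0457) and rho 0.905 (exact p = 0.00456).

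**Figure D4:**
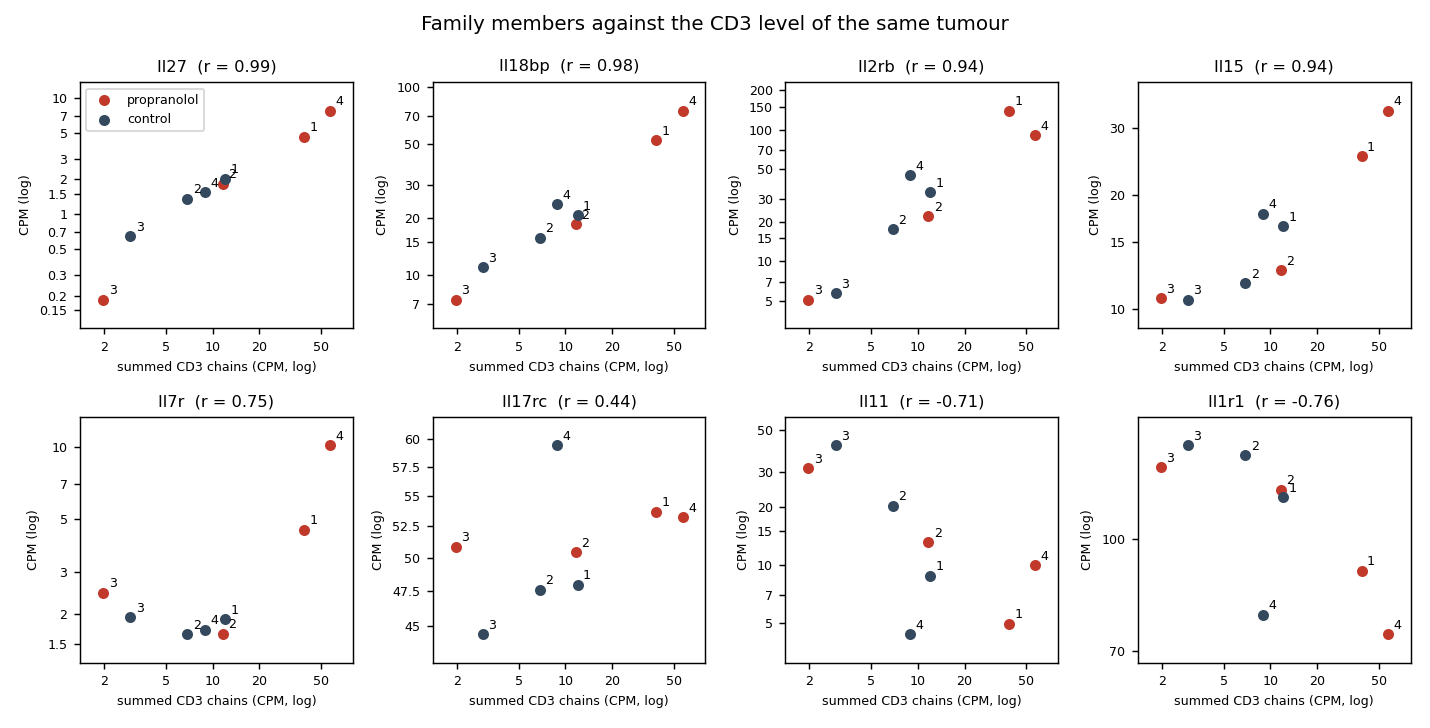
CPM of 8 members (vertical, log axis) against the summed CPM of the 3 CD3 chains (horizontal, log axis) in numbered propranolol and control tumours. Il27 and Il18bp follow CD3 over the whole range (r = 0.992 and 0.983), Il7r is highest in the 2 tumours with the most CD3, and Il11 and Il1r1 run the opposite way (r = -0.713 and -0.760).

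The number of calls fell with fewer tumours, but fewer tumours also raise the smallest p that can be reached, so this count cannot show dependence on a tumour. Leaving out any one tumour left 0 members past the adjusted test, except 5 without control tumour 4, and with 7 tumours the smallest exact p possible is 0.000198. With 1 tumour left out, r was 0.990 to 0.995 for Il27, 0.974 to 0.993 for Il18r1 and 0.973 to 0.990 for Il18bp. It was 0.958 to 0.982 for Il21r, 0.950 to 0.976 for Il10ra, 0.914 to 0.983 for Il2rg and 0.890 to 0.967 for Il15. A pseudocount of 0.1 gave 3 members, Il10ra, Il18bp and Il27. Spearman's rho gave Il27 alone, beside 27 of 14006 genes on the positive side. Centring each level on its group mean, which removes any difference between propranolol and control, gave 10 members, the 7 among them. Levels centred within groups cannot be exchanged freely between groups, so these permutation p-values are not exact and the count is a description only. For the 7, r on centred levels was 0.925 (Il15) to 0.993 (Il27). The share over all genes is not given for the counts with tumours left out, a pseudocount of 0.1 or centring.

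The 2 tumours farthest from the median CD3 level were propranolol 3 and 4. Without them no member passed the adjusted test, for which the smallest exact p with 6 tumours is 0.00139, and r was 0.996 for Il27, 0.987 for Il18r1, 0.959 for Il18bp, 0.943 for Il21r, 0.976 for Il10ra, 0.869 for Il2rg and 0.884 for Il15. Without propranolol tumours 1 and 4, which held the most CD3, none passed either, and r was 0.986 for Il27, 0.941 for Il18r1, 0.938 for Il18bp, 0.809 for Il2rg and 0.738 for Il15. Among members with r of 0.7 or more, only Il7r changed sign here. Its r of 0.750 became -0.771 without propranolol tumours 1 and 4, so that its relation to CD3 rested on these 2 tumours. Other members also lost much of their relation without them, among them Il6ra (0.811 to 0.333) and Il13ra1 (0.707 to 0.125).

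Beyond the 7, r was above 0.9 for Il15ra, Il2rb, Il27ra, Il12rb1 and Il16, which makes 12 members or 27.9% beside 4.54% of all genes. At the other end r was below -0.7 for Il1r1, Il1rap, Il11 and Il1rl2, which is 9.30% of members beside 10.6% of all genes. Another 16 members lay between -0.5 and 0.5, among them Il34, Il4ra, Il17ra, Il17rc, Il1b, Il1rl1 and Il18rap.

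The CD3 level and other leukocyte content cannot be told apart here. Over the same tumours it correlated with the C1q chains of macrophages at r = 0.984, with the sum of S100a9 and Csf3r, the neutrophil markers in the table, at r = 0.976, and with mast cell genes at r = 0.891, but with fibrillar collagens at r = -0.202. With the C1q chains 3 of 43 members passed the adjusted test (Il10ra, Il27 and Il16), beside 0.914% of all genes on the positive side. With the sum of S100a9 and Csf3r, 6 of 43 did, namely Il27, Il18bp, Il2rg, Il15, Il21r and Il10ra, beside 2.26% of all genes. That sum was almost wholly Csf3r, at 7.14 to 37.1 CPM in propranolol tumours and 10.5 to 15.8 CPM in control tumours, while S100a9, an abundant transcript of neutrophils, was at 0.0591 to 1.215 CPM in propranolol tumours and 0.114 to 1.06 CPM in control tumours. No member passed with mast cell genes or collagens, beside 0.228% and 0.05% of all genes on the positive side. The C1q chains summed to 1253, 895, 491 and 1231 CPM in propranolol tumours 1 to 4, against 862, 720, 541 and 726 CPM in control tumours 1 to 4, and the NK markers to 43.6, 6.92, 3.88 and 36.8 CPM in propranolol tumours, against 16.9, 8.82, 2.71 and 18.1 CPM in control tumours. Both lists, like CD3, were highest in propranolol tumours 1 and 4. The part of each leukocyte type in the member levels was not tested.

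**Figure D5:**
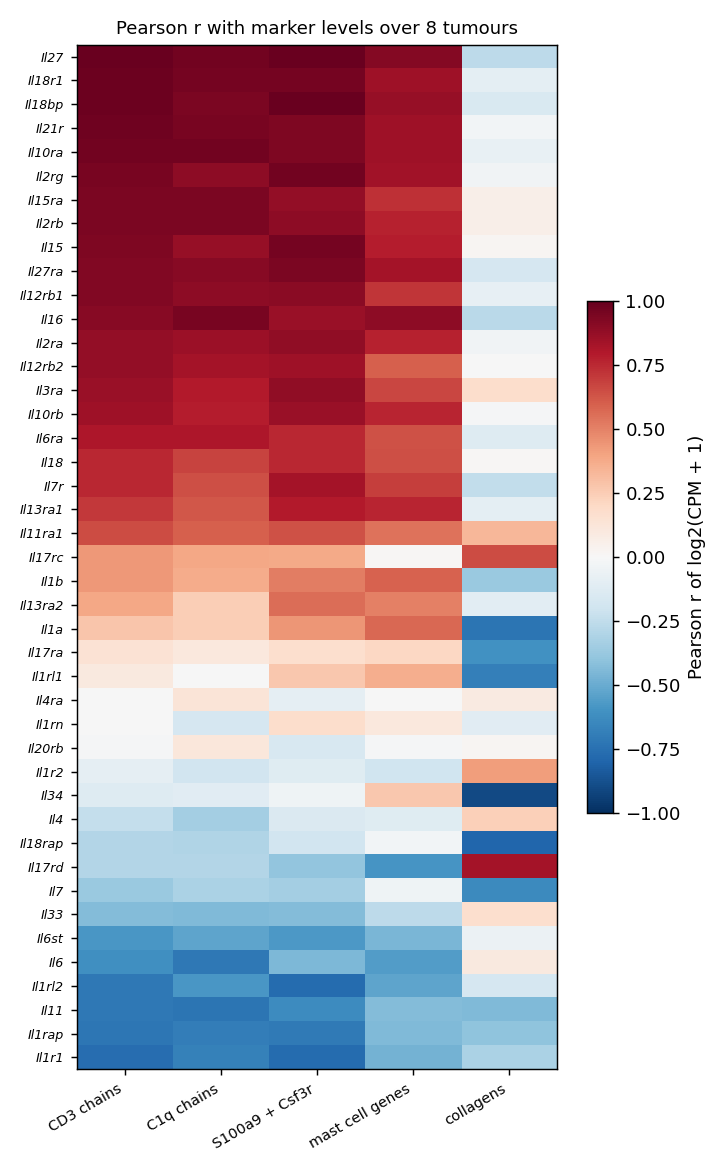
Pearson r over 8 tumours between each tested member (vertical, ordered by r with CD3) and 5 marker levels (horizontal), on a colour scale from -1 to 1, all on log2(CPM + 1). Il27 is at the top and Il1r1 at the bottom of the CD3 order (r = 0.992 and -0.760); 0 members passed the adjusted test with collagens.

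Downstream genes were examined by list. All 11 JAK kinases and STAT factors had fitted log2 fold changes above 0, with a median of 0.25; none passed the adjusted test, and Jak3, the kinase bound to the common gamma chain, had an edgeR unadjusted p of 0.0404 at a log2 fold change of 0.32 (SE 0.14). All 8 inflammasome genes, which process IL-1 and IL-18, were above 0 with a median of 0.38, as were all 5 IL-17 adaptors with a median of 0.14. The adaptors of IL-1, IL-18 and IL-33 receptors had 7 above and 3 below 0, with a median of 0.01. SOCS genes, feedback inhibitors of these pathways, had 2 above and 6 below 0, with a median of -0.12. STAT5 target genes of the IL-2 family had 7 above and 1 below with a median of 0.20, STAT3 target genes 5 above and 3 below with a median of 0.13, and STAT6 target genes 3 above and 3 below with a median of -0.01. Of all genes tested, 49.4% were above 0. The STAT5 list holds Prf1 (log2 fold change 1.52, SE 1.13) and Gzmb (1.297, SE 0.97), killing proteins of cytotoxic T and NK cells, named here after their values were seen. Markers of those cells leaned the same way, with medians of 1.94 for the CD3 chains and 1.08 for the NK list, and their part in these lists was not tested. No gene of any of these lists passed an adjusted p of 0.05 by edgeR's test.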

How the data were processed

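RNA-seq of 8 tumours was taken as deposited: the authors deposited whole-number gene counts and FPKM values per library, with log2 fold changes and p-values of their own comparison, per the file headers. Per the submitters' processing notes, the tools were edgeR 3.24.3, featureCounts 1.6.2, fastp 0.19.3, StringTie 1.3.4d, HISAT2 2.1.0 and DESeq2 1.22.1 with the build GRCm39, and no roles are named. No source used here gives aligner settings, strandedness or annotation. Every gene of the table exceeded 1 CPM in at least 2 libraries, so lower genes were not analysed here.

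Counts were fitted on the whole table with edgeR 4.0.16 in R 4.3.3 (TMM, filterByExpr, robust quasi-likelihood F test, Benjamini-Hochberg over 14006 genes); the SE is the log2 fold change over the square root of F. FPKM served to show levels only. CPM for correlations used TMM library sizes and a pseudocount of 1. Permutation p-values were two-sided and, except for centred levels, exact over all pairings of tumours. They were planned to be adjusted over the members, and were instead adjusted over all tested genes. Alternatives were RLE scaling, no count filter, DESeq2 1.42.0, limma-voom 3.58.1, a replicate block, leaving out each tumour, a pseudocount of 0.1 and Spearman's rho. Log2 fold changes are printed for 19 members: in each role group the 3 with the highest mean FPKM and the 3 with the smallest p, and the receptor chains Il2ra, Il2rb, Il2rg, Il4ra, Il7r and Il21r. The members and lists were chosen with earlier results of these data known.

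Tumours with the same number deviated together, with r of 0.235, 0.340, 0.571 and 0.287 for numbers 1 to 4, each above 0.1; unlike numbers reached 0.391 (propranolol 1 with control 4) and 0.376 (propranolol 4 with control 1), and the labels do not say what a number shares. The planned fit has no block, and the blocked counts stand beside it. No 2 libraries of a group agreed within counting noise. The fitting code was tested on simulated data. Promoter windows came from RefSeq on GRCm38.p6 and their coordinates are not those of the count table.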

Additional observations from a re-analysis of the deposited data

Results flagged for a closer look

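In 3 of 88 groups of 4 tumours, 1 tumour stood apart from the other 3 by Dixon's test, which chance does in about 1 group in 20. Propranolol tumour 3 had 27.16 CPM of Il33, against 6.15 to 9.54 CPM in the other propranolol tumours. Propranolol tumour 4 had 2.25 CPM of Il12b, a gene with few counts, against 0.370 to 0.565 CPM in the other propranolol tumours. Propranolol tumour 1 had 160.3 CPM of Il18rap, against 185.6 to 190.5 CPM in the other propranolol tumours, a small gap in an otherwise even group.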

How the results depend on the processing

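No gene passed the adjusted test under any alternative. Of 247 alternative values for the 19 named genes, 236 kept their direction and side of the threshold and 11 reversed, in 7 genes. Il1rn was -0.00835 with limma-voom. Leaving out 1 tumour gave log2 fold changes of -1.002 to 0.42 for Il11, -0.30 to 0.055 for Il13ra2, -0.039 to 0.29 for Il18rap, -0.52 to 0.010 for Il1b, -0.24 to 0.41 for Il1rn, -0.14 to 0.069 for Il34 and -0.029 to 0.13 for Il4ra; the cause was not tested. Leaving out 1 tumour kept the sign but gave 0.28 to 0.97 for Il2ra, 0.21 to 0.85 for Il21r, 0.19 to 0.74 for Il15, 0.11 to 0.70 for Il2rg and 0.15 to 0.70 for Il16. Members at an unadjusted p under 0.05 numbered 0 with limma-voom, beside 246 of 14006 genes, and 8 with the replicate block, beside 717. They numbered 0 to 13 with 1 tumour left out, 13 being without propranolol tumour 3, beside 1017 of 14074 genes. The count of members passing the CD3 correlation was 3 with a pseudocount of 0.1. With Spearman's rho it was 1, beside 27 of 14006 genes on the positive side. It was 0 without the 2 tumours farthest from the median CD3 level and 0 without propranolol tumours 1 and 4. With 1 tumour left out it was 0 to 5. The Spearman and 6-tumour alternatives were added after seeing the data. The median member log2 fold change ran from 0.070 without propranolol tumour 4 to 0.27 without propranolol tumour 2. Counts behind Il12b, at 1 to 37 per library, are too few for a fold change.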

Other observations

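With the summed fibrillar collagens over the 8 tumours, Il34 had r = -0.903 (exact permutation p = 0.000942, adjusted over 70030 relations p = 0.0549) and rho = -0.881 (exact p = 0.00724, adjusted p = 0.129). Il17rd had r = 0.833 (exact p = 0.00977, adjusted p = 0.137) and rho = 0.786 (exact p = 0.0279, adjusted p = 0.242). Il18rap had r = -0.792 (exact p = 0.0176, adjusted p = 0.183) and rho = -0.643 (exact p = 0.0962, adjusted p = 0.412). None passed the adjusted test. Without control tumour 4 and propranolol tumour 3, which lay farthest from the median collagen level, r was -0.741 for Il34, 0.352 for Il17rd and -0.963 for Il18rap, so that the relation of Il17rd rested on these 2 tumours. Control tumour 4 also stood apart in skeletal muscle markers, at 595.8 CPM, against 57.5 CPM or less in every other tumour, and their part in these relations was not tested. The 3 genes were singled out after their values were seen.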
